A study of Homo sapiens with 3 samples.

Results

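The BCL2 family regulators of apoptosis are described here through 10 genes, BCL2, BCL2L1, MCL1, BCL2L11, BBC3, PMAIP1, BID, BAD, BAX and BAK1. They were read through all probe sets that the platform annotation assigns to 1 of these genes alone, which gave 46 of the 45253 single-gene probe sets and 10 of 18239 genes. A probe set is the group of short oligonucleotides on the array that together read one transcript region. The measurements came from 3 Affymetrix arrays of GFP-SAS cells, as the labels call a culture of SAS, an established line from a human tongue carcinoma. For 24 h the cells had been given 10 nM of an siRNA, a small double-stranded RNA that leads the cell to cut an mRNA of matching sequence. The control library had the non-targeting siRNA siNT, and the other libraries had siAkt1-22 or siAkt1-58, 2 siRNAs against AKT1, with 1 library each. The siRNA sequences were not used here, and whether the libraries are separate cultures is not stated in the labels. The comparison asks how gene expression in these cells differs after knockdown of the kinase AKT1.

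Proteins of the BCL2 family decide whether the outer mitochondrial membrane is opened and cytochrome c is released, the step that commits a cell to the intrinsic route of apoptosis. Anti-apoptotic members (BCL2, BCL-xL from BCL2L1, and MCL1) bind and hold the pro-apoptotic ones. BH3-only members (BIM from BCL2L11, PUMA from BBC3, NOXA from PMAIP1, BID and BAD) carry stress signals to them, and the effectors BAX and BAK, from BAX and BAK1, form the pores. AKT kinases are known to act on this balance by phosphorylating BAD, which 14-3-3 proteins then hold in the cytosol, and FOXO factors, which can activate BCL2L11 and BBC3. Much of this regulation takes place on proteins, which the arrays do not read.

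AKT1 itself read 6.75 with siNT, 3.67 with siAkt1-22 and 3.47 with siAkt1-58 on the log2 scale, in its brightest probe set. Both siAkt1 readings there lie below log2 3.93, the filter level described below, so the size of the difference is uncertain. The second AKT1 probe set read 5.31, 4.07 and 4.02, a smaller difference of -1.23 and -1.29. The dimmest read 3.47 in every library. Of the genes tested, 680 had their siAkt1-22 value 2-fold or more above or below both other values, against 256 for siAkt1-58 and 244 for siNT. The poly-A controls, RNA added during preparation and read by 24 probe sets, had a median difference from siNT of -0.56 in the siAkt1-22 library and -0.01 in the siAkt1-58 library. Of 11 listed epithelial markers, 8 were measured. A mean at or above log2 3.93, the level used as a filter on dim genes, was reached by 7. These were KRT5, KRT8, KRT18, EPCAM, CDH1, SFN and DSP. The others listed, KRT14, KRT6A, KRT17 and TP63, were either not measured or below that level. Summed log2 values of the 8 measured genes were 76.9, 77.7 and 78.1 in siNT, siAkt1-22 and siAkt1-58. Fibroblast markers reached that level in 1 of 6 measured genes (PDGFRB), endothelial markers in 2 of 4 (PECAM1 and VWF) and leukocyte markers in 1 of 5 (CD68). CD68 read 6.33, 6.75 and 7.14 in the same order of libraries in its brightest probe set, and 5.99, 6.01 and 5.99 in its dimmer one. The leukocyte marker PTPRC was below the level.

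Values are deposited log2 values, and differences are log2 differences from siNT, where 1 is 2-fold. The brightest probe set stood for its gene, and 12779 genes passed the filter, set at the 30th percentile of mean log2 value. All 10 members passed. Since arrays read different genes through different probes, no gene's level is set against another's. In RNA from whole cultures, fewer cells that express a gene and less RNA per cell cannot be told apart. Both siAkt1 libraries were set against the same siNT library, so an error in that library enters both differences.

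Most members, like most genes tested, lay close to their siNT value in both siAkt1 libraries. No member was at least 2-fold from siNT with both siRNAs, in either direction, in a comparison where 0.736% of all genes tested were higher and 1.17% were lower. With siAkt1-22 alone, BBC3 was at least 2-fold higher and BAK1 at least 2-fold lower, so 1 of 10 members on each side against 4.40% and 5.97% of all genes. With siAkt1-58 alone, 0 members were called on either side, against 1.54% of genes higher and 3.58% lower. For 7 of the 10 members the difference was under 0.5 with both siRNAs, against 62.1% of all genes tested. The median over the members was 0.03 with siAkt1-22 and 0.11 with siAkt1-58, beside 0 and 0 over all genes.

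**Figure D1:**
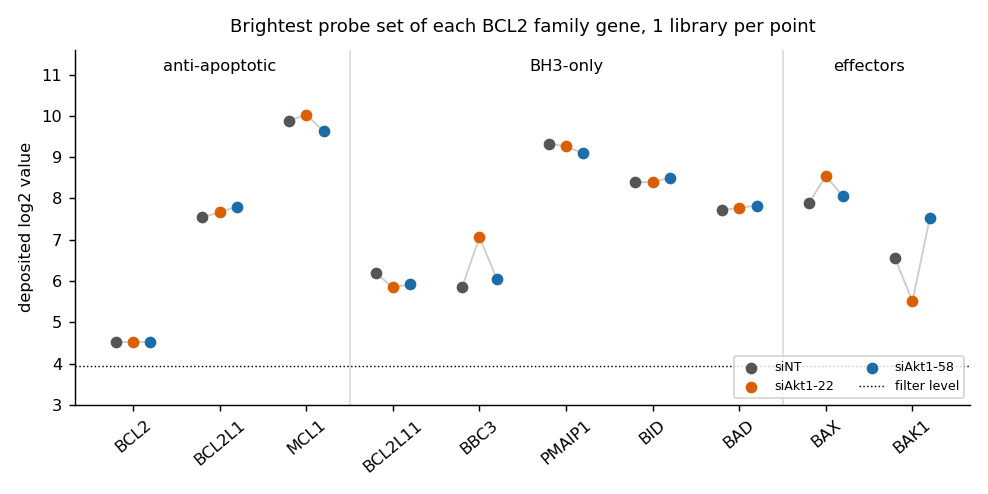
Deposited log2 value (y axis) of the brightest probe set of each of the 10 genes (x axis, ordered by role), with 1 point per library and the filter level dotted. BAK1 spreads from 5.50 to 7.52 and BBC3 from 5.86 to 7.06, while BCL2 reads 4.53 in every library; heights of different genes are not comparable.

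Tested with limma as a group of 2 libraries against siNT, 0 of the 10 members and 0 of all 12779 genes passed at a limma adjusted p under 0.05 (Benjamini-Hochberg; 0.00% of genes on either side). The lowest limma adjusted p among the members was 0.674, for BCL2L11. At an unadjusted limma p under 0.05 there were 954 genes (7.47%) and 0 members. This test has 1 residual degree of freedom and takes its spread from siAkt1-22 against siAkt1-58, so these p-values do not show that any member kept its level.

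Among the anti-apoptotic genes, BCL2, the founding member, read low throughout. Its brightest probe set read 4.53 in all 3 libraries, and the other 5 lay below the filter level, between 2.57 and 3.65 with siNT. Their differences ran from 0 to 0.00 with siAkt1-22 and from -0.17 to 0.02 with siAkt1-58. Values that dim cannot show whether BCL2 transcript differed between the libraries.

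BCL2L1, which encodes the long-lived inhibitor BCL-xL, read 7.55 with siNT, 7.66 with siAkt1-22 and 7.80 with siAkt1-58. Its second probe set read 5.35, 5.83 and 5.78, and the third 4.58, 4.66 and 4.62. All 3 probe sets were thus higher in both siAkt1 libraries than in siNT, by 0.08 to 0.48 with siAkt1-22 and by 0.04 to 0.43 with siAkt1-58. The mean difference of the brightest probe set was 0.19 ± 0.10 (SD, n = 2), with a limma adjusted p of 0.913.

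MCL1 encodes a short-lived inhibitor whose mRNA and protein both turn over quickly, and its probe sets disagreed. The brightest read 9.89 with siNT, 10.03 with siAkt1-22 and 9.62 with siAkt1-58, and the next brightest 9.06, 9.20 and 8.91. Both of these probe sets differed from siNT by 0.14 with siAkt1-22, and by -0.26 and -0.15 with siAkt1-58. The third read 8.20 with siNT, 7.41 with siAkt1-22 and 6.99 with siAkt1-58, and the fourth 6.50, 5.74 and 5.08. These were lower in each siAkt1 library, by -0.79 and -0.76 with siAkt1-22 and by -1.20 and -1.41 with siAkt1-58. The fifth read 5.71, 5.71 and 5.85, and the dimmest read 3.59 in every library. Averaged over its 6 probe sets MCL1 differed by -0.21 with siAkt1-22 and -0.48 with siAkt1-58, against 0.14 and -0.26 in the brightest one. The choice of probe set therefore decides the sign with siAkt1-22. Which MCL1 transcripts each probe set reads was not analysed here, and the brightest carries a suffix that Affymetrix gives to probe sets whose probes can match several transcripts.

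**Figure D2:**
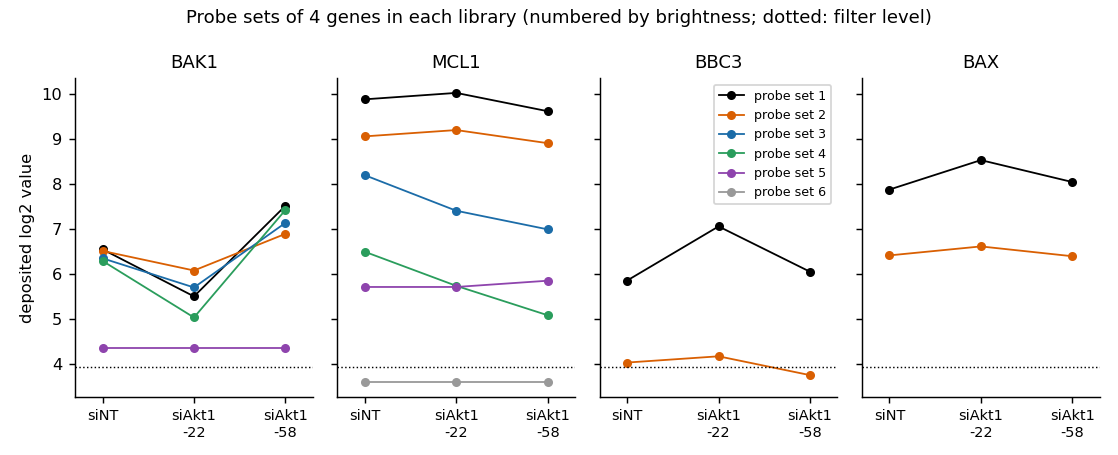
Deposited log2 values (y axis) of every probe set of BAK1, MCL1, BBC3 and BAX in the 3 libraries (x axis; lines join values of 1 probe set), numbered from the brightest. For BAK1, 4 of the 5 probe sets are lowest with siAkt1-22 and highest with siAkt1-58; for MCL1 the third and the fourth are lower in both siAkt1 libraries, and the brighter ones stay closer to siNT.

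BCL2L11, BBC3 and BAK1 are the members for which the sequence upstream of the gene is shown, since the first is a known FOXO target and the others parted most between the siRNAs. Sequences are from RefSeq on build GRCh38.p14, 250 bases that end just before the annotated gene start, written 5′ to 3′ on the gene's strand. Capitals mark exact matches, on either strand, to a FOXO motif (GTAAACA), an E-box (CACGTG) or a GC box (GGGCGG); no match of one overlaps another here. The BCL2L11 window is chr2:111120664-111120913 on the plus strand, the BBC3 window chr19:47232668-47232917 on the minus strand and the BAK1 window chr6:33580277-33580526 on the minus strand.
BCL2L11: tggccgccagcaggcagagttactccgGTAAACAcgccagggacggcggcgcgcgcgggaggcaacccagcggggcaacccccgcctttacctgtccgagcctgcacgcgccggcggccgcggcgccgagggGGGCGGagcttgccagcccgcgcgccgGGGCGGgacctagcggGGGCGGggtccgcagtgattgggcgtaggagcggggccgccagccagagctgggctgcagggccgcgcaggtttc
BBC3: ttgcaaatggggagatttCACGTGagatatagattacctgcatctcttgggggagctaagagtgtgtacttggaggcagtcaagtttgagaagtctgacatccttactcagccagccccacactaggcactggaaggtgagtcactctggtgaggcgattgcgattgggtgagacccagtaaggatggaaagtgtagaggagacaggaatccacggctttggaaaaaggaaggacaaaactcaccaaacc
BAK1: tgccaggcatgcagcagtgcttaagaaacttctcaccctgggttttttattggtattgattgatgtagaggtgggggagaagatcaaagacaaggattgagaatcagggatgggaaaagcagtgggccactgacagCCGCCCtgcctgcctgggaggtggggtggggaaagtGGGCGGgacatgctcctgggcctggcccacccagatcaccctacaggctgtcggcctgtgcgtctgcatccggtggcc
The FOXO letters begin 223 bases before the start of BCL2L11 and occurred in 1 of the 15 windows that the table holds for 9 member genes, against 2.98% of all 35116 windows of that length. The E-box begins 232 bases before the start of BBC3, and 4 of the 15 member windows, from 3 genes (BAX, BBC3 and BID), held it, against 6.34% of all windows. GC boxes were in 10 of the 15 member windows, from 6 genes (BAD, BAK1, BAX, BCL2L11, BID and PMAIP1), against 42.6% of all windows. Windows of 1 gene can overlap. These matches describe letters in short windows and do not show binding.

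BCL2L11 encodes BIM, a BH3-only protein able to engage every anti-apoptotic member. Its brightest probe set read 6.20 with siNT, 5.84 with siAkt1-22 and 5.92 with siAkt1-58, so both siAkt1 libraries lay below siNT. The next brightest read 5.98, 5.71 and 5.71. The mean difference of the brightest probe set was -0.31 ± 0.06 (SD, n = 2). Of 14 probe sets, 5 reached the filter level, and the other 3 of these differed by at most 0.10 in size. Below the level, 1 probe set read 3.72, 2.98 and 3.26, the widest gap from siNT for this gene. The remaining 8 had values under 3.74. With probe sets averaged, BCL2L11 differed by -0.12 with either siRNA. FOXO3, a factor that AKT inactivates and that is known to activate this gene, read 8.39 with siNT, 8.94 with siAkt1-22 and 9.02 with siAkt1-58 at the mRNA level.

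BBC3 encodes PUMA, a BH3-only protein known as a target of p53 and FOXO factors. Its brightest probe set read 5.86 with siNT, 7.06 with siAkt1-22 and 6.05 with siAkt1-58. The siAkt1-22 library stood alone, 2.30-fold above siNT, while siAkt1-58 was 1.14-fold above. The dimmer probe set, close to the filter level, read 4.03, 4.17 and 3.75, with differences of 0.14 and -0.28. Averaging both gave 0.67 with siAkt1-22, below the 2-fold limit, and -0.04 with siAkt1-58. The mean difference of the brightest probe set was 0.70 ± 0.71 (SD, n = 2), as large as the spread between the siRNAs. DDIT3, the stress factor CHOP, is known to act on BH3-only genes. It was also highest with siAkt1-22, at 6.43 against 4.81 with siNT and 5.10 with siAkt1-58. A link between the DDIT3 and BBC3 values was not tested, and DDIT3 is 1 of the 680 genes with siAkt1-22 apart from both other libraries. The wider spread and the lower poly-A controls of the siAkt1-22 library stand beside the values of BBC3, BAX and BAK1 there, and their part in them was not tested.

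PMAIP1, whose product NOXA binds mainly MCL1, read 9.33 with siNT, 9.26 with siAkt1-22 and 9.09 with siAkt1-58. The dimmer of the PMAIP1 probe sets read 8.46, 8.07 and 8.09. Every reading with an siAkt1 siRNA was below siNT, by -0.07 to -0.39 with siAkt1-22 and by -0.24 to -0.37 with siAkt1-58. The brighter probe set differed by -0.15 ± 0.12 on average (SD, n = 2; limma adjusted p of 1).

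BID, which caspase-8 cleaves to link death receptors to mitochondria, stayed near its siNT value in every probe set. Its brightest probe set read 8.39 with siNT, 8.40 with siAkt1-22 and 8.50 with siAkt1-58, and its 4 probe sets differed from siNT by -0.08 to 0.11. BAD, the member that AKT phosphorylates, read 7.72, 7.77 and 7.83. Its other probe set read 6.72, 6.87 and 6.82. Both BAD readings were thus above siNT with either siRNA, by 0.05 to 0.14, and the mean difference of the brighter one was 0.08 ± 0.04 (SD, n = 2; limma adjusted p of 0.908).

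BAX, the effector that moves from the cytosol to mitochondria, read 7.88 with siNT, 8.54 with siAkt1-22 and 8.05 with siAkt1-58. That is 1.58-fold above siNT with siAkt1-22 and 1.12-fold with siAkt1-58. Its dimmer probe set read 6.42, 6.62 and 6.40, so only the siAkt1-22 library was above siNT there. The mean difference of the brighter probe set, 0.41 ± 0.34 (SD, n = 2), had a limma adjusted p of 1.

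BAK1, the effector that resides in the outer mitochondrial membrane, was the member on which the siRNAs disagreed most. Its brightest probe set read 6.55 with siNT, 5.50 with siAkt1-22 and 7.52 with siAkt1-58. The siNT value lies between the others, 2.07-fold above siAkt1-22 and 1.96-fold below siAkt1-58. The second probe set read 6.51, 6.08 and 6.90, the third 6.35, 5.70 and 7.14, and the fourth 6.29, 5.03 and 7.43. These 4 put the libraries in the same order, with differences of -0.44 to -1.26 for siAkt1-22 and 0.38 to 1.13 for siAkt1-58, and the fifth, dimmer one read 4.35 in all 3. The siAkt1-22 library was 4.05-fold below siAkt1-58 in the brightest probe set, the 191st widest gap between the siRNAs among 12779 genes. Their mean difference from siNT was -0.04 ± 1.43 (SD, n = 2), so a mean over both siRNAs hides both readings. Averaged over its 5 probe sets, BAK1 differed by -0.68 with siAkt1-22 and 0.65 with siAkt1-58, a gap of -1.33, and the 2-fold call with siAkt1-22 was lost. RefSeq lists the pseudogenes BAK1P1 and BAK1P2, and whether the probes tell them from BAK1 was not analysed here.

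Set directly against each other, siAkt1-22 and siAkt1-58 were at least 2-fold apart in 2 of the 10 members. BBC3 was higher with siAkt1-22 by 1.01, in a direction in which 5.00% of all genes were called, and BAK1 was lower by -2.02, against 5.28% of genes. The BBC3 gap lies at the 2-fold limit: it was 0.997 with median-centred arrays, and averaging its probe sets also ended the call. The gap was 0.49 for BAX and 0.41 for MCL1, and at most 0.18 in size for the remaining 6 members. The median size of the gap was 0.16 over the members and 0.22 over all genes tested. With 1 library per siRNA these gaps carry no test.

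**Figure D3:**
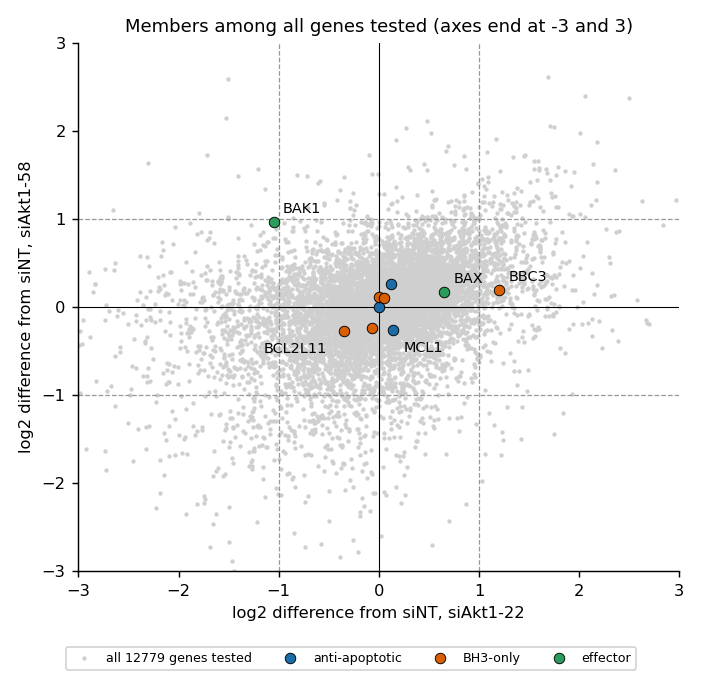
Log2 difference from siNT with siAkt1-22 (x axis) and with siAkt1-58 (y axis) for all 12779 genes tested (grey) and the 10 members (coloured by role; dashed lines mark 2-fold). BAK1 lies at -1.05 and 0.97 and BBC3 at 1.20 and 0.20, with the other members nearer the centre; both axes share the siNT library.

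Counted probe set by probe set, without a filter, 0 of 46 were at least 2-fold from siNT with both siRNAs, against 0.396% of all single-gene probe sets higher and 0.791% lower. With siAkt1-22, 1 (BBC3) was higher, against 2.50% of probe sets, and 2 (both BAK1) were lower, against 4.19%. With siAkt1-58, 1 (BAK1) was higher, against 0.921%, and 2 (both MCL1) were lower, against 2.27%. Between the siRNAs, 1 (BBC3) was at least 2-fold higher with siAkt1-22, against 2.89% of probe sets, and 3 (all BAK1) were lower, against 3.71%. Probe sets of 1 gene share their transcript and are not independent. Exactly equal values in at least 2 libraries occurred in 15 of the 46 (32.6%), against 45.1% of all single-gene probe sets. Values equal in all 3 libraries occurred in 5 of the 46, against 20.6%. Such ties were not limited to dim probe sets, since a BIRC2 probe set read 7.51 in every library. A difference of 0 may thus not be a measured lack of change, and the source of the ties was not tested. Of the 46, 15 lay below the filter level, and 14 carried a suffix that marks probes able to match other transcripts, the brightest ones of BCL2, BCL2L1, MCL1 and BAD among them.

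**Figure D4:**
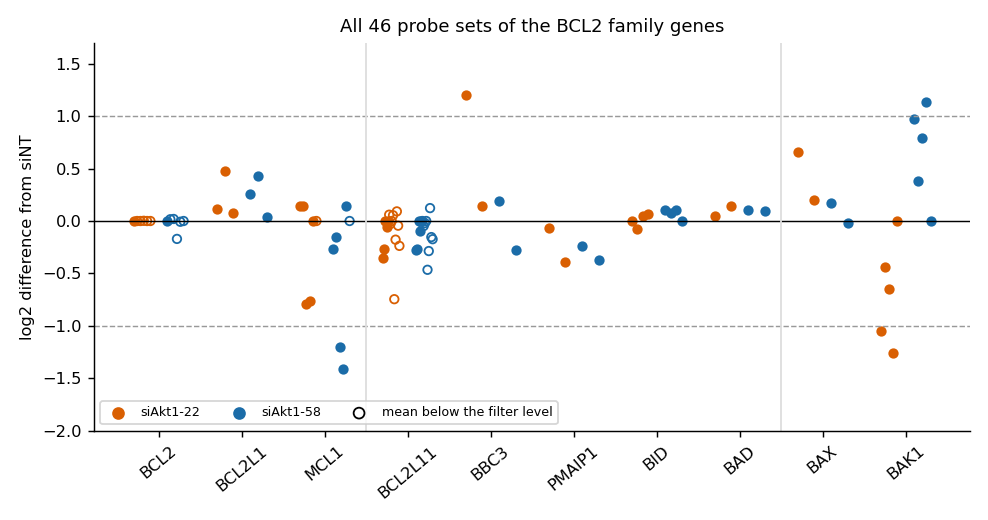
Log2 difference from siNT (y axis) of all 46 probe sets by gene (x axis) for siAkt1-22 and siAkt1-58, with open points for probe sets whose mean is below the filter level and dashed lines at 2-fold. The points past the lines belong to BBC3 and BAK1 with siAkt1-22 and to MCL1 and BAK1 with siAkt1-58.

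Around the family, 8 lists of genes held 94 genes, of which 84 were measured and 76 passed the filter. AKT1 was the 1 gene among them at least 2-fold lower with both siRNAs, and 0 were higher. With siAkt1-22, 1 of 76 was at least 2-fold higher (DDIT3) and 5 were lower (AKT1, BNIP2, BNIP3L, TNFRSF10A and OPA1), where 4.40% and 5.97% of all genes were. With siAkt1-58, 0 were higher and 3 were lower (AKT1, BIRC5 and JUN), where 1.54% and 3.58% of all genes were. BIRC5 and JUN lay at the 2-fold limit there, each at -1.01. With siAkt1-58 the other JUN probe sets were at -0.77 to -0.81, and the other BIRC5 probe sets ran from -1.02 to 0.07. No gene in these lists passed limma, since none did among all genes.

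Other BCL2 relatives had medians of 0.09 and 0 over 11 tested genes, with members on both sides of siNT. BCL2L2, which encodes the inhibitor BCL-w, was 0.27 above siNT with siAkt1-22 and 0.37 with siAkt1-58. The mitophagy receptor BNIP3L read 9.28 with siNT, 7.70 with siAkt1-22 and 9.61 with siAkt1-58, and its 5 other probe sets were also lower than siNT with siAkt1-22, by -0.61 to -0.74. BNIP2, a BCL2-interacting protein, was at -1.12 and -0.23, and all 3 of its probe sets were at least 2-fold lower with siAkt1-22. BNIP3, a relative of BNIP3L, was 0.44 and 0.22 above siNT. The probe sets of BCL2L13, a mitochondrial BCL2 relative, disagreed, with 0.33 and 0.12 in the brightest and -1.32 and -0.22 in the next.

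Downstream, apoptosome and caspase genes had medians of 0.08 and 0.01 over 10 tested genes. CYCS, cytochrome c itself, read 11.12 with siNT, 10.60 with siAkt1-22 and 10.68 with siAkt1-58. The initiator platform APAF1 was dim, at 4.14, 3.88 and 3.97, and DIABLO, which neutralises inhibitors of apoptosis, was 0.54 and 0.20 above siNT. The executioner CASP6 was -0.02 and -0.71. Among 4 tested inhibitors of apoptosis, XIAP, the direct caspase inhibitor, was 0.07 and 0.65. BIRC5, which encodes survivin and is also a mitotic gene, was -0.75 and -1.01.

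On the death receptor route to BID, with medians of 0.29 and 0.44 over 9 tested genes, the receptor TNFRSF10A read 7.55 with siNT, 6.28 with siAkt1-22 and 6.75 with siAkt1-58. Its ligand TNFSF10 (TRAIL) was 0.68 and 0.82 above siNT but dim, at 3.72 with siNT, 4.40 with siAkt1-22 and 4.53 with siAkt1-58. It was below the filter level with siNT and passed only through its siAkt1 values, so the filter favoured a positive difference. Its other probe sets, below that level on their mean, were at 0.09 and 0.60 and at 0.29 and 1.17. The adaptor TRADD was 0.80 and 0.58, though its dimmer probe set read 0.00 and 0.08, and the receptor FAS was 0.31 and 0.44 above siNT. TNFRSF10B, another receptor for TNFSF10, went the other way from TNFRSF10A, at 0.19 and 0.44 above siNT.

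Transcription factors known to act on BH3-only genes had medians of -0.05 and 0.19 over 10 tested genes. FOXO3 was above siNT in all 3 of its probe sets, by 0.46 to 0.71 with siAkt1-22 and by 0.55 to 0.62 with siAkt1-58. FOXO4 was 0.50 and 0.20 in its brightest probe set, and its other probe sets were at 0 to 0.08 with siAkt1-58. FOXO1 was on opposite sides of siNT, at -0.34 and 0.37. JUN, a stress-activated factor, was -0.66 and -1.01, and HIF1A was -0.26 and 0.54. Genes for turnover of MCL1, BIM and NOXA had medians of -0.22 and 0.06 over 7 tested genes. The deubiquitinases USP13 and USP9X were at -0.63 and -0.45, and at -0.22 and 0.34. The MCL1 ubiquitin ligase HUWE1 was 0.12 and 0.27.

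Genes for kinases, phosphatases and 14-3-3 partners of BAD had medians of -0.09 and 0.05 over 17 tested genes. Next to AKT1, its relative AKT2 was -0.97 and -0.02. The second AKT2 probe set was at -2.01 and -0.01, and the dimmer ones lay between -0.24 and 0.08. The BAD kinases RPS6KA1 (0.52 and 0.34) and RPS6KB1 (0.65 and 0.20) were above siNT. The second RPS6KB1 probe set was at 0 and -0.01. PIM3, another BAD kinase, was 0.61 and -0.81. The 14-3-3 genes lay on both sides of siNT, with YWHAH at -0.50 and -0.35 and YWHAE at 0.31 and 0.14. Mitochondrial membrane partners had medians of 0.30 and 0.10 over 8 tested genes. OPA1, the fusion protein of the inner membrane, read 7.93 with siNT, 5.95 with siAkt1-22 and 8.11 with siAkt1-58, and all 5 of its probe sets were at least 2-fold lower with siAkt1-22. MTCH2, the mitochondrial receptor for BID, was 0.55 and 0.39, and VDAC2, the channel that holds BAK, was 0.33 and -0.39.

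**Figure D5:**
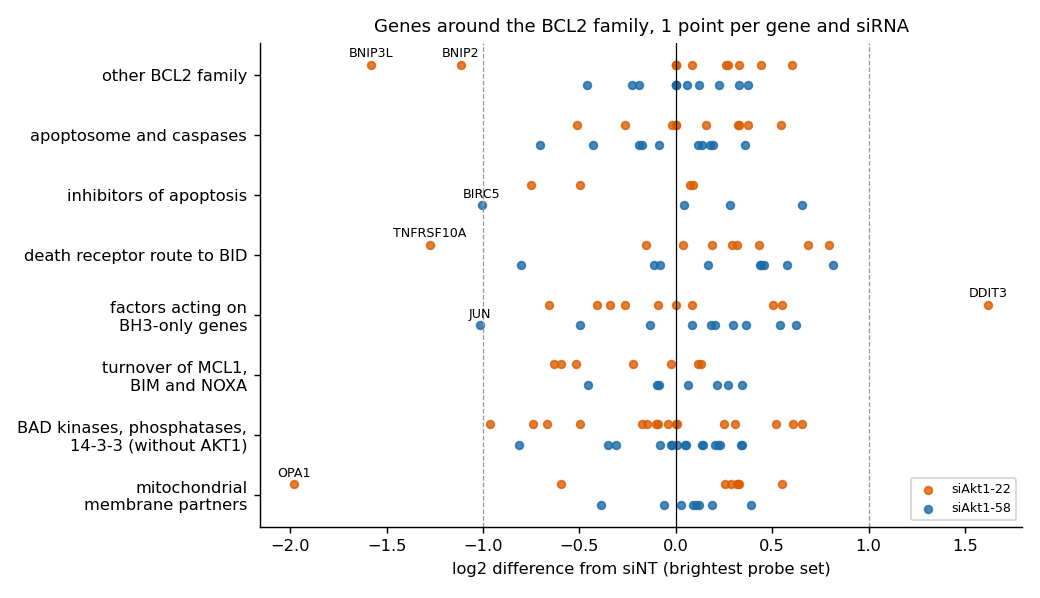
Log2 difference from siNT (x axis) of the tested genes of each list (y axis), without AKT1, with 1 point per gene for siAkt1-22 and 1 for siAkt1-58; dashed lines mark 2-fold and genes past them are named. OPA1 (-1.98), BNIP3L (-1.58) and DDIT3 (1.62) are the farthest points, all with siAkt1-22.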

How the data were processed

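Per the labels' protocols, biotin-labelled RNA was made from 10 ng of total RNA with a 3' in vitro transcription kit. The authors deposited 1 log2 value for each probe set and array, and the submitters' processing notes name RMA, without version or settings. The log2 scale was inferred from the range (2.20 to 13.4, medians 4.58 to 4.59). Precision is limited by there being 3 arrays.

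Of 49386 probe sets, 93 controls, 1327 with several genes and 2713 unlisted ones were left out. Symbols were updated through Entrez identifiers. A log2 difference of at least 1 was counted as 2-fold. The two-sided test of limma 3.58.1 (R 4.3.3; lmFit, then eBayes, with Benjamini-Hochberg adjustment across the tested genes) compared both siAkt1 libraries, 1 group by their genotype label, with siNT, which is assumed to vary like them. Its p-values therefore reflect the spread between the siAkt1 libraries alone. That spread holds any difference between their siRNAs and may also be technical. Scripts were tested on simulated data.

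The members and gene lists were chosen with earlier results of these data known. From each list the text may name genes at least 2-fold from siNT with both siRNAs. It may also name up to 3 more on each side by the smaller difference and up to 2 with the widest gap between siRNAs. FOXO1 and TNFRSF10B were added outside this rule, after their values were seen. Values of other probe sets of the named genes were chosen after being seen. Alternatives were quantile normalization, median centring, the mean over a gene's probe sets, a filter at the 50th percentile or none, probe sets as the unit, 1.5-fold, eBayes with trend or robust, and each siAkt1 library left out.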

Additional observations from a re-analysis of the deposited data

Results flagged for a closer look

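BAK1 was on opposite sides of siNT in the siAkt1 libraries, at -1.05 with siAkt1-22 and 0.97 with siAkt1-58, a difference of -2.02 between the siRNAs on the log2 scale. The difference was not tested, since each siRNA has 1 library. It was -2.03 with median-centred arrays, -2.02 after quantile normalization and -1.33 with probe sets averaged.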

How the results depend on the processing

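Averaging probe sets, which leaves BCL2 below the filter, put 0 members past 2-fold on either side with siAkt1-22, and 0 higher with siAkt1-22 than with siAkt1-58; over all genes it gave 43 higher and 99 lower with both siRNAs, 370 higher with siAkt1-22 and 81 higher with siAkt1-58. Median centring put the gap of BBC3 between the siRNAs at 0.997, so 0 members and 0 member probe sets were 2-fold higher with siAkt1-22 than with siAkt1-58. A limit of 1.5-fold gave 2 members higher with siAkt1-22 and 1 with siAkt1-58. Among member probe sets it gave 2 lower with both, 2 higher and 6 lower with siAkt1-22, 3 higher with siAkt1-58 and 2 higher with siAkt1-22 than with siAkt1-58. Over all genes it gave 409 higher and 458 lower with both, 1574 and 1536 with siAkt1-22, 841 and 1117 with siAkt1-58, and 1545 and 1381 between the siRNAs. With probe sets as the unit, members gave 2 lower with siAkt1-22, 1 higher and 2 lower with siAkt1-58 and 3 lower with siAkt1-22 than with siAkt1-58, and a median of 0 with siAkt1-58. The filter here was the 30th percentile over probe sets rather than genes, which 31677 passed, 33 of them from members. Those 31677 gave 179 higher and 352 lower with both, 1116 and 1884 with siAkt1-22, 412 and 1020 with siAkt1-58, and 1291 and 1675 between the siRNAs. Leaving out 1 siAkt1 library leaves single siRNAs: 0 to 1 members higher, 0 to 1 lower, 197 to 562 genes higher and 457 to 763 lower, with a member median of 0.028 to 0.107; the higher counts and the lower median are those without siAkt1-58. Limma passed 0 genes under each alternative run and has no residual degree of freedom with a library left out. Single members, none of which passed a test, did change sign: averaging took MCL1 with siAkt1-22 from 0.14 to -0.21 and BBC3 with siAkt1-58 from 0.20 to -0.04. The mean of the siRNAs ran from -1.05 to 0.97 for BAK1 and from -0.26 to 0.14 for MCL1 when 1 siAkt1 library was left out. No paired analysis was possible because there is 1 siNT library and the labels carry no replicate numbers. Dim probe sets, 15 of 46, limit what can be read for BCL2 and most BCL2L11 probe sets.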
